A study of Mus musculus with 36 samples.

Results

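The 9 genes followed here belong to the kynurenine pathway and to NAD synthesis and were measured over the 12 groups of a mouse kidney series: Aadat, Afmid, Kmo, Kynu, Haao, Acmsd, Qprt, Nadsyn1 and Bst1. They were chosen by name as enzymes on the way from tryptophan to NAD, together with the NAD-consuming Bst1, because several of them moved early in Digenic kidneys. All 9 had a row among the 18049 genes of the deposited table, and all 9 passed the filter on low counts at each age. The Digenic values at P0 and P3 took part in that choice and are given below as a description with no p-value. The P12 kidneys and the single mutants at P0 and P3 did not take part in it, although the latter share their WT libraries with it.

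RNA was extracted from the whole kidney of C57BL/6 mice on the day of birth (P0), at 3 days (P3) and at 12 days (P12). The 4 genotypes at each age were WT, Pkd1-RC/RC (homozygous for the RC allele of Pkd1), Pkhd1-/- (homozygous for a loss of Pkhd1) and Digenic (homozygous for both mutations), and each group held 3 libraries. Pkd1 and Pkhd1 are the genes mutated in dominant and recessive polycystic kidney disease, and the comparison asks whether the mutations act together. The labels name no Cre driver, transgene or pooling of animals. Nothing in the labels says that libraries of a group came from separate litters, so p-values measure the spread between these libraries.

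The kynurenine pathway breaks down tryptophan, and one of its branches is the route by which cells build NAD from an amino acid. Afmid (arylformamidase) releases kynurenine, Kmo (kynurenine 3-monooxygenase) hydroxylates it, Kynu (kynureninase) removes the side chain and Haao (3-hydroxyanthranilate dioxygenase) opens the ring to a product that either closes spontaneously to quinolinic acid or is diverted by Acmsd (aminocarboxymuconate semialdehyde decarboxylase). Qprt (quinolinate phosphoribosyltransferase) carries quinolinic acid into NAD synthesis and Nadsyn1 (NAD synthetase) makes the last step, while Aadat (kynurenine aminotransferase II, which also acts on aminoadipate in lysine breakdown) leads kynurenine off to kynurenic acid and Bst1 (CD157, a surface ADP-ribosyl cyclase) cleaves NAD. In the kidney these enzymes are known chiefly from the proximal tubule, and the liver holds most of them as well.

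Total counts ran from 51411240 to 80789299 per library. Pkhd1 lay between 0.412 and 2.29 RPKM (reads per kilobase of gene, scaled to library depth) in the kidneys that carry the Pkhd1 mutation and between 4.30 and 17.4 in those that do not, as the labels have it. In 2 libraries the column header differs from the label in age or genotype: Digenic P12 replicate 1 and Pkd1-RC/RC P12 replicate 2. In 3 other libraries the sex in the header went against the sex-linked RNA. All 3 Digenic P3 libraries were female by their RNA, against 1 of 3 WT P3 libraries, so that sex and genotype are partly mixed there. Adrenal transcripts summed to more than 100 CPM (counts scaled to library depth) in 8 libraries, among them Digenic P12 replicates 2 and 3 (126 and 158 CPM) and Digenic P3 replicate 3 (477 CPM). Markers of the liver, which expresses this pathway, summed to 432 CPM in 1 WT P0 library and 554 CPM in 1 Pkd1-RC/RC P3 library, against 89.1 to 248 CPM in the other libraries of P0 and P3. The markers of the proximal tubule were present throughout: all 15 were measured and none was at 0 in any library.

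**Figure D1:**
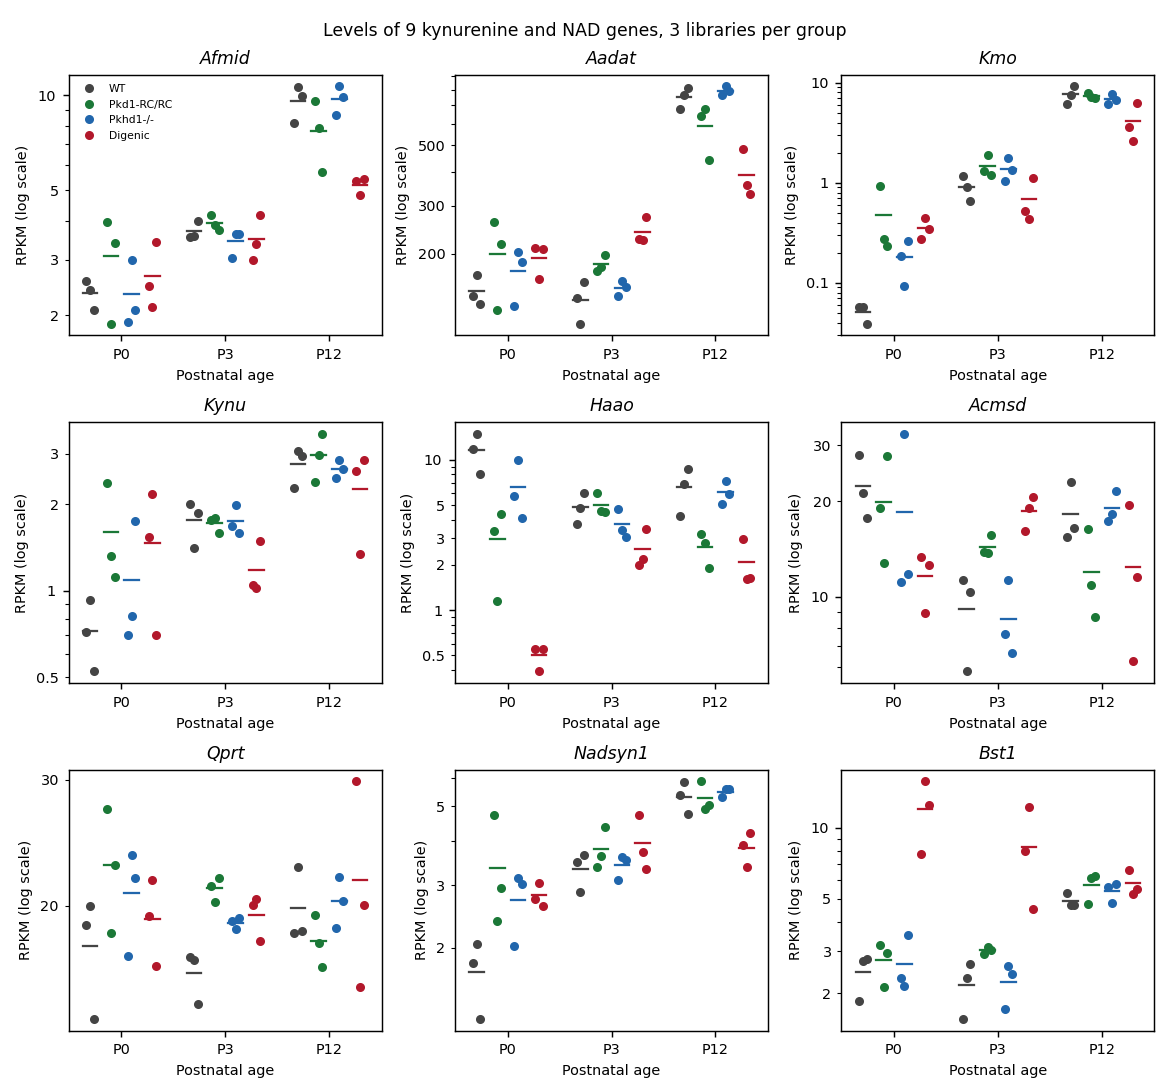
Level of each gene in RPKM (log axis) by age, with 1 point per library and a bar at the mean of 3 libraries, for WT, Pkd1-RC/RC, Pkhd1-/- and Digenic kidneys. The 3 Digenic libraries of P0 lie lowest for Haao (0.393 to 0.556) and highest for Bst1 (7.72 to 15.7), and at P12 they lie below WT for Aadat, Afmid, Haao and Nadsyn1.

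The genes differed widely in level per length. Aadat was the most abundant, with group means from 135 RPKM in WT P3 to 793 RPKM in Pkhd1-/- P12. Qprt (16.1 to 22.8 RPKM) and Acmsd (8.53 to 22.3 RPKM) followed, and no pair of neighbouring groups in their order stood apart by library. The lowest level was that of Kmo in WT P0, at 0.0515 ± 0.0107 RPKM (SD, n = 3) and a mean of 15 counts, and Kmo also spanned the widest range, 148-fold to its highest group mean, 7.64 RPKM in WT P12. Haao spanned 23.2-fold, from 0.500 RPKM in Digenic P0 to 11.6 RPKM in WT P0. Qprt spanned 1.42-fold. The median coefficient of variation within groups was 10.4% for Qprt and 27.4% for Haao.

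The genes lie apart in the genome (mm10, GENCODE M21): Kmo at chr1:175620381-175662116, Acmsd at chr1:127729413-127767978, Haao at chr17:83831156-83847963, Aadat at chr8:60505932-60545677, Afmid at chr11:117825924-117839908, Nadsyn1 at chr7:143795584-143822849, Qprt at chr7:127107114-127122226, Kynu at chr2:43555329-43682715 and Bst1 at chr5:43818885-43843986. Haao shares chromosome 17 with the mutated Pkd1 gene, 59.2 Mb away. Afmid shares 1566 exon bases with Gm20708 on the same strand and 83 with Tk1 on the other, Bst1 shares 98 with Fbxl5 and Acmsd 94 with an antisense gene. No source used here says whether counting took strand into account, so reads of these overlaps, and above all the Afmid counts, are uncertain.

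Promoters of 6 of the 9 genes were used from RefSeq (GRCm38.p6), as 300 bases from 250 before to 50 after the start on the gene's strand. They were searched on both strands for 4 motifs of the proximal tubule or of tryptophan metabolite sensing: AGGTCA (a nuclear receptor half-site, in 16.3% of 32851 promoters of that length), CAAAGTCCA (HNF4A, 0.475%), GTTAAT (an HNF1 half-site, 7.10%) and GCGTG (the core bound by the aryl hydrocarbon receptor, 32.4%). Of the 6 promoters 2 held any of them, and these are shown 5′ to 3′ with the matched letters in capitals: Haao at chr17:83846741-83847040 on the minus strand and Aadat at chr8:60505874-60506173 on the plus strand. The RefSeq start of Haao lies inside the GENCODE span given above.
Haao: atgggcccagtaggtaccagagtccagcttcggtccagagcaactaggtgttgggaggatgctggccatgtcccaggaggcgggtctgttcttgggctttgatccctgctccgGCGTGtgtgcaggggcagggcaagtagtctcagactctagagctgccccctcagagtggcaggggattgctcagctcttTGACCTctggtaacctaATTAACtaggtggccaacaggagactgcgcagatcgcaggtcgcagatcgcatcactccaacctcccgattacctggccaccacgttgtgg
Aadat: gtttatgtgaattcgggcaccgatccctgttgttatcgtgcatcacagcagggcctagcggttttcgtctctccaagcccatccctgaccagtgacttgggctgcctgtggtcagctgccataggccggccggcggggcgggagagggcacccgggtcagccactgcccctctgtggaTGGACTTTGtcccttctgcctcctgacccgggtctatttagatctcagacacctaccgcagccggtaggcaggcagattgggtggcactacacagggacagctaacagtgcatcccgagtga
Haao held 3 of the motifs, with first bases at -137 (GCGTG), -58 (AGGTCA, reverse strand) and -41 (GTTAAT, reverse strand) from the start. Aadat held CAAAGTCCA at -72, on the reverse strand. The other promoters used held none of the 4 letter strings in this window, and with so few promoters used the matches were not set against the changes in RNA. A match is a description of the letters and not of a bound site.

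At P12 the Digenic kidneys held less RNA of 5 of the 9 genes than WT kidneys, and of none more. The enzymes that fell stand at the head of the pathway (Afmid, Kmo, Aadat), in the ring-opening step (Haao) and at the last step to NAD (Nadsyn1), with decreases of 0.48 to 1.67 on the log2 scale. Kynu, Acmsd, Qprt and Bst1 did not pass the test. Across all 18002 genes tested 23% were called in this comparison, 12% higher and 11% lower, and the median log2 fold change was -0.01 against -0.56 over the 9 genes.

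Haao had 4.23, 6.88 and 8.70 RPKM in the WT libraries of P12 and 2.98, 1.62 and 1.63 RPKM in the Digenic ones. No Digenic library reached the lowest WT library. The log2 fold change was -1.67 (SE 0.31, n = 3 per group) with an adjusted p of 0.00253 in edgeR's quasi-likelihood test (Benjamini-Hochberg over all genes, as in all that follow), a 3.19-fold lower mean. Against Pkhd1-/- (5.05, 7.25 and 5.90 RPKM) the change was -1.55 (SE 0.31, adjusted p = 0.00320). Against Pkd1-RC/RC, where Haao was already low at 3.20, 2.79 and 1.90 RPKM, the groups overlapped and the difference of -0.35 (SE 0.31, adjusted p = 0.477) did not pass.

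Aadat had 682, 766 and 811 RPKM in WT and 483, 358 and 330.2 RPKM in Digenic kidneys of P12, with no overlap. It fell by 0.95 on the log2 scale against WT (SE 0.16, adjusted p = 0.00159) and by 1.02 against Pkhd1-/- (SE 0.16, adjusted p = 0.000791). Pkd1-RC/RC replicate 3, at 442 RPKM, lay within the Digenic range, and the fall against that genotype was smaller, 0.59 (SE 0.16, adjusted p = 0.0238). Afmid showed the tightest Digenic group, 5.33, 4.81 and 5.43 RPKM, against 8.14, 10.6 and 9.93 RPKM in WT. All 3 Digenic libraries lay below every library of the other 3 genotypes, and Afmid fell by 0.88 against WT (SE 0.16, adjusted p = 0.00244), by 0.91 against Pkhd1-/- (SE 0.16, adjusted p = 0.00168) and by 0.58 against Pkd1-RC/RC (SE 0.16, adjusted p = 0.0269).

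Nadsyn1 fell least of the 5 genes. WT libraries of P12 held 5.38, 5.84 and 4.75 RPKM, Digenic libraries 3.89, 3.38 and 4.20 RPKM, and every Digenic library lay below every library of the other 3 genotypes. The change was -0.48 against WT (SE 0.11, adjusted p = 0.00879), -0.47 against Pkd1-RC/RC (SE 0.11, adjusted p = 0.0120) and -0.53 against Pkhd1-/- (SE 0.11, adjusted p = 0.00427). Kmo was the least secure: 3.63, 2.65 and 6.23 RPKM in Digenic against 6.14, 7.59 and 9.18 RPKM in WT, so that 1 Digenic library reached into the WT range. Its fall of 0.87 against WT (SE 0.26) had an adjusted p of 0.0319, and that of 0.82 against Pkd1-RC/RC (SE 0.26) one of 0.0465. Against Pkhd1-/- the difference of -0.72 (SE 0.26) had an adjusted p of 0.0595.

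Qprt, which takes quinolinic acid into NAD, had 29.8, 15.4 and 20.1 RPKM in Digenic kidneys of P12 against 18.3, 22.7 and 18.5 RPKM in WT, a difference of 0.13 (SE 0.19, adjusted p = 0.666). The Digenic libraries thus held both the highest and the lowest Qprt value of that age, and without Digenic replicate 1 the difference was -0.16. Acmsd was spread more widely in the Digenic group than in WT, at 19.5, 6.29 and 11.5 RPKM in Digenic against 15.4, 23.0 and 16.5 RPKM in WT (-0.56, SE 0.37, adjusted p = 0.324). Kynu had 2.61, 1.34 and 2.86 RPKM in Digenic and 2.28, 3.07 and 2.96 RPKM in WT (-0.29, SE 0.24, adjusted p = 0.426). In each of these 3 genes replicate 2 was the lowest Digenic library. Bst1, which had been high in Digenic kidneys at the earlier ages, was at 6.66, 5.27 and 5.53 RPKM against 5.32, 4.73 and 4.73 RPKM in WT, and the difference of 0.24 (SE 0.13, adjusted p = 0.205) did not pass.

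Against Pkd1-RC/RC 4 of the 9 genes fell (Kmo, Afmid, Aadat and Nadsyn1; 9.24% of all genes were called lower, 19.5% in either direction), and against Pkhd1-/- 4 fell (Haao, Afmid, Aadat and Nadsyn1; 12.6% lower, 28.2% in either direction). The count of falls against Pkd1-RC/RC is fragile: it was 0 without Pkd1-RC/RC replicate 1, 1 without replicate 2 and 3 without replicate 3. It was 2 without Digenic replicate 1 or 3, and 1 (Nadsyn1) without Digenic replicate 2, where Qprt was called higher in addition. The interaction, Digenic minus each single mutant plus WT, passed for 0 of 9 genes, while 8.57% of all genes passed. The values nearest to the threshold were those of Nadsyn1 (-0.52, SE 0.16, adjusted p = 0.0603) and Aadat (-0.67, SE 0.23, adjusted p = 0.0889). At an unadjusted p under 0.05, 3 genes would have been counted, and DESeq2 called 2, Aadat and Nadsyn1. A departure of the Digenic fall from the sum of both single effects was therefore not established for any of the 9 genes.

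The 5 falls against WT depended on single libraries only for Kmo, whose call was lost without WT replicate 2 (adjusted p = 0.0722) or 3 (0.112) and without Digenic replicate 1 (0.106) or 2 (0.0587). In a fit of all 36 libraries 3 of the 5 remained, Haao, Afmid and Aadat, while Kmo (adjusted p = 0.132) and Nadsyn1 (0.103) did not pass. Without both libraries whose headers differ from their labels 4 genes fell, Kmo being lost (adjusted p = 0.124). Without the libraries that carry adrenal transcripts only Digenic replicate 1 remained at P12, the library whose header reads P3, taken to vary like the other groups. Kmo then fell (-1.06, adjusted p = 0.00695), Qprt rose (0.61, adjusted p = 0.0127) and Haao (-1.13), Afmid (-0.83), Aadat (-0.63) and Nadsyn1 (-0.44) were not called (adjusted p of 0.0707 to 0.104).

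**Figure D2:**
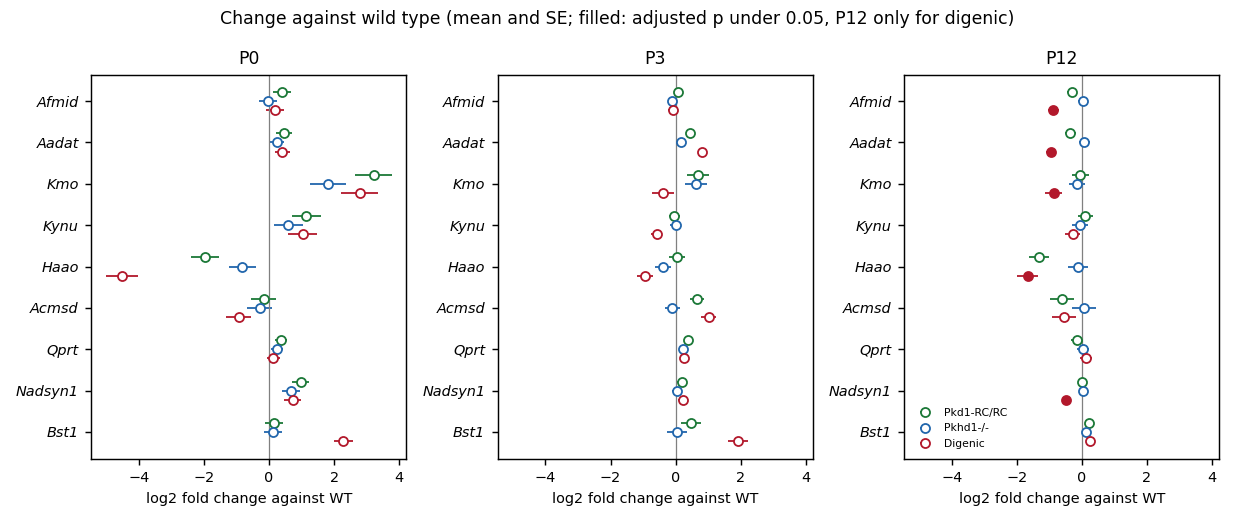
Log2 fold change against WT (point, with bars of 1 SE) of each gene in Pkd1-RC/RC, Pkhd1-/- and Digenic kidneys at P0, P3 and P12, from 3 libraries per group. Filled points passed an adjusted p of 0.05; Digenic at P0 and P3 was not tested. The 5 filled points are the Digenic falls of P12, and the Digenic points of P0 run from -4.53 for Haao to 2.79 for Kmo.

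Markers of the proximal tubule were lower in sum, and those of macrophages higher, in the same Digenic kidneys. The 15 proximal tubule markers summed to 6608 to 7675 CPM in the Digenic libraries and 11507 to 14760 CPM in WT, and 7 of the 15 fell, with a median of -0.47 over the list. Macrophage markers (9 of 10 measured) summed to 387 to 1010 CPM against 165 to 207 CPM in WT, and all 9 rose. Neutrophil markers (4 of 8 measured) summed to 9.19 to 90.2 CPM against 1.70 to 5.66 CPM, and liver markers (11 of 12 measured) to 259 to 511 CPM against 356 to 457 CPM. B lineage markers (4 of 6 measured), relevant because Bst1 marks early B cells, summed to 6.71 to 7.16 CPM against 5.46 to 7.61 CPM, and pancreas markers (2 of 8 measured) to 10.0 to 19.2 CPM against 34.3 to 57.2 CPM. In whole kidneys, fewer cells of a type and less RNA per cell cannot be told apart. The part of these shifts in the falls of the 5 genes was not tested.

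**Figure D3:**
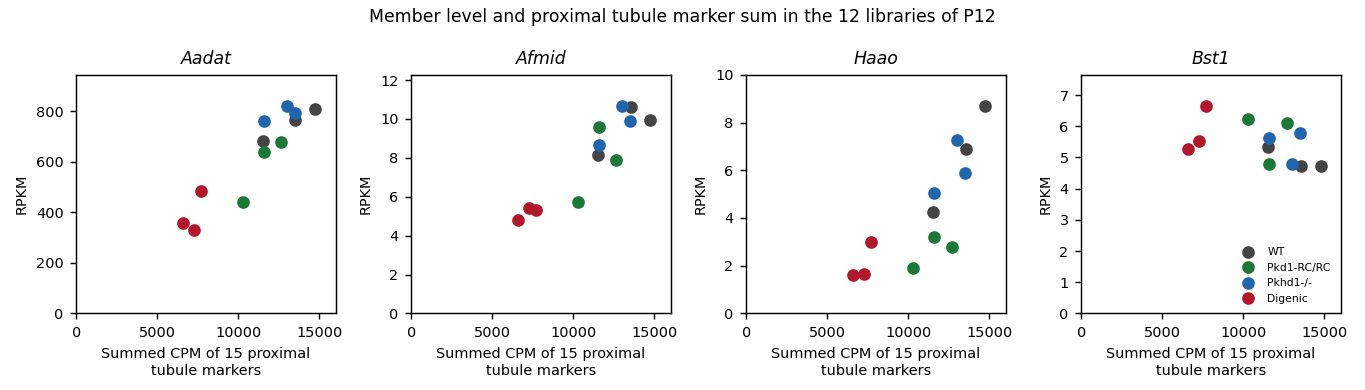
Level in RPKM of Aadat, Afmid, Haao and Bst1 against the summed CPM of 15 proximal tubule markers in the 12 libraries of P12, 1 point per library. The 3 Digenic libraries have the lowest marker sums, 6608 to 7675 CPM, and 3 of the 4 lowest Aadat and 3 of the 3 lowest Afmid levels, whereas Bst1 at 5.27 to 6.66 RPKM overlaps with the other genotypes.

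Over the 12 libraries of P12 the log2 levels of Aadat (r = 0.93), Afmid (0.92), Nadsyn1 (0.84), Kmo (0.83) and Haao (0.83) went with the summed proximal tubule markers, those of Acmsd (0.59) and Kynu (0.53) less so, and those of Qprt (-0.01) and Bst1 (-0.41) did not. These values are descriptive, since each library gives both quantities and the Digenic group lies at one end of both. The 5 genes with the highest values are the 5 that fell, but a fall in the 3 Digenic libraries by itself raises r, so nothing is read from this. In the plot of level against marker sum, Haao in Pkd1-RC/RC had 1.90 to 3.20 RPKM at sums of 10296 to 12664 CPM. Pkhd1-/- libraries with 11570 to 13513 CPM held 5.05 to 7.25 RPKM. Haao in Pkd1-RC/RC did not pass against WT (adjusted p = 0.157) or Pkhd1-/- (adjusted p = 0.14) at P12. The part of the marker sum in its level was not tested.

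At birth the Digenic kidneys lay farthest from WT in 3 of the 9 genes, Haao, Bst1 and Kmo. Kmo was not particular to Digenic. All libraries of Pkd1-RC/RC and Pkhd1-/- also lay above WT in it (3.21 and 1.81, against 2.79 in Digenic). In the contrast of Digenic against WT 0.671% of all genes were called, and since it served to choose the genes nothing is read from their count. Haao had 0.551, 0.393 and 0.556 RPKM in Digenic P0, or 36 to 49 counts, against 11.8, 14.8 and 8.06 RPKM in WT, a log2 fold change of -4.53 (SE 0.49). Every single mutant library lay above the Digenic ones, Pkd1-RC/RC at 3.36, 1.14 and 4.35 RPKM and Pkhd1-/- at 5.75, 9.92 and 4.09 RPKM, and the Pkhd1-/- group overlapped with WT. The highest WT value came from the library with 432 CPM of liver markers, which summed to 101 to 141 CPM in Digenic P0, and their part in the Haao difference was not tested. Proximal tubule markers summed to 3450 to 3885 CPM in Digenic P0 and 3601 to 5896 CPM in WT P0, and their part was not tested either. By P3 Digenic Haao was 2.01, 2.19 and 3.47 RPKM against 3.74, 4.78 and 5.99 RPKM in WT (-0.93, SE 0.25), again without overlap. Within the Digenic genotype Haao was thus higher at P3 than at P0, by 2.36 (SE 0.41), while WT Haao was lower at P3 than at P0. Pkd1-RC/RC Haao was also higher at P3 in all libraries, though not called (0.77, SE 0.37, adjusted p = 0.354). Pkhd1-/- Haao was lower and not called either (-0.82, SE 0.36, adjusted p = 0.152).

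Bst1 went the other way. Digenic libraries held 7.72, 15.7 and 12.5 RPKM at P0, where the WT libraries held 1.86, 2.74 and 2.78 RPKM and no single mutant library exceeded 3.52 RPKM. The log2 fold change was 2.28 against WT (SE 0.29), 2.12 against Pkd1-RC/RC (SE 0.29) and 2.17 against Pkhd1-/- (SE 0.29). At P3 it was 8.01, 12.2 and 4.52 RPKM against 1.56, 2.31 and 2.65 RPKM in WT (1.91, SE 0.30), and still above every single mutant library. The lowest of these, replicate 3, is the Digenic P3 library with adrenal transcripts, and it also held the most Kmo and Haao of its group. Without it the values against WT at P3 were 2.20 for Bst1 (SE 0.24), -0.93 for Kmo (SE 0.29), -1.22 for Haao (SE 0.24), 0.93 for Acmsd (SE 0.25) and 0.72 for Aadat (SE 0.13). At P12 the libraries of the other genotypes held 4.73 to 6.23 RPKM, and the Digenic group, at 5.82 ± 0.74 RPKM (SD, n = 3), overlapped with each of them. Macrophage markers summed to 226 to 261 CPM in Digenic P0 against 173 to 199 CPM in WT P0, and to 244 to 390 CPM against 149 to 205 CPM at P3. Of the 9 markers measured, 3 were higher than in WT at P0 (median log2 fold change -0.08) and 9 at P3 (median 0.77). Most markers thus did not share in the higher sum of P0. Pkd1-RC/RC P0 replicate 2, at 242 CPM, also lay within the Digenic range of that age. Bst1 occurs on myeloid and stromal cells as well. The part of such cells in the early Bst1 level was not tested.

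Kmo, close to the limit of counting in newborn WT kidneys at 0.0575, 0.0579 and 0.0392 RPKM (12 to 20 counts), had 0.274, 0.446 and 0.346 RPKM in Digenic P0 (2.79, SE 0.57). Pkd1-RC/RC P0 had 0.938, 0.274 and 0.231 RPKM, which overlapped with Digenic, and its higher mean rested on replicate 1. At P3 the Digenic libraries, at 0.525, 0.438 and 1.12 RPKM, lay below all 3 of Pkd1-RC/RC (1.31, 1.88 and 1.20 RPKM) and overlapped with WT (1.16, 0.916 and 0.652 RPKM). Kynu and Nadsyn1 had positive Digenic values at P0 too, 1.03 (SE 0.44) and 0.72 (SE 0.27). Digenic Kynu overlapped with WT and Digenic Nadsyn1 did not. Neither was particular to Digenic: Pkd1-RC/RC had larger values in both genes, with all its libraries above WT. Acmsd was lower in all 3 Digenic libraries of P0 (13.4, 8.91 and 12.6 RPKM) than in WT (28.0, 21.2 and 17.7 RPKM), at -0.93 (SE 0.39). Both single mutants overlapped with Digenic in Acmsd at P0, and with WT as well.

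At P3, where 2.7% of all genes were called, the Digenic values farthest above WT were those of Bst1, Acmsd and Aadat. This contrast again served in the choice, and the 9 genes were not tested in it. Acmsd had turned to 16.2, 19.0 and 20.6 RPKM in Digenic against 11.3, 5.84 and 10.4 RPKM in WT (1.01, SE 0.22). Aadat had 227, 224 and 272 RPKM against 137, 111 and 158 RPKM (0.82, SE 0.12), so the gene that was lower in Digenic kidneys at P12 was higher at P3. Both lay above every library of the other 3 genotypes. All Pkd1-RC/RC libraries of P3 lay above WT in both genes too, without passing the test. The values were 0.43 for Aadat (SE 0.12, adjusted p = 0.633) and 0.65 for Acmsd (SE 0.22, adjusted p = 0.873). At P12 Pkd1-RC/RC was below WT in all libraries of Aadat (-0.36, SE 0.16, adjusted p = 0.668) and overlapped with WT in Acmsd (-0.61, SE 0.37, adjusted p = 0.728). The proximal tubule sum did not separate these groups, at 4582 to 5034 CPM in Digenic P3 and 4442 to 5641 CPM in WT P3. Single markers went both ways: of the 15, 2 were called higher and 2 lower (median 0.05). Their part in the Acmsd and Aadat levels was not tested. All 3 Digenic libraries but only 1 of the WT libraries were female by RNA. The remaining Digenic values were those of Haao (-0.93, SE 0.25), Kynu (-0.58, SE 0.17), Kmo (-0.39, SE 0.34), Afmid (-0.09, SE 0.13), Nadsyn1 (0.23, SE 0.15) and Qprt (0.26, SE 0.09).

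In the single mutants none of the 9 genes passed the test against WT at any age. The background was as low: from the youngest to the oldest age, 0.0166%, 0.0443% and 0.267% of all genes were called in Pkd1-RC/RC and 0.0111%, 0.0166% and 0.0333% in Pkhd1-/-. At an unadjusted p under 0.05, 4, 3 and 2 of the 9 genes would have been counted at the same ages in Pkd1-RC/RC, and 2, 1 and 0 in Pkhd1-/-. DESeq2 called 2, 1 and 1 in Pkd1-RC/RC and 0 at each age in Pkhd1-/-. Pkd1-RC/RC against Pkhd1-/- gave 0 of 9 at P0, P3 and P12 in edgeR, where 0.0444%, 0.0942% and 0.511% of all genes were called, and 2 of 9 at an unadjusted p under 0.05 at each age. DESeq2, run for P0 and P3, called 0 at both.

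The 2 single mutant differences from WT that were farthest from 0 were both in Pkd1-RC/RC at P0. Kmo at P0 lay above WT in all 3 libraries, at 3.21 (SE 0.57, adjusted p = 0.0928), or 2.28 without Pkd1-RC/RC replicate 1, and Haao lay below WT in all 3, at -1.98 (SE 0.43, adjusted p = 0.244). In the fit of all 36 libraries both were called (adjusted p = 0.00094 and 0.00573), as was Nadsyn1 (0.97, adjusted p = 0.00982), and DESeq2 called Kmo and Haao (1.83e-05 and 0.00138). At P12 Haao in Pkd1-RC/RC was again below every WT library, at -1.33 (SE 0.31, adjusted p = 0.157 in edgeR and 0.00221 in DESeq2). At P3 the 2 groups overlapped in Haao, 5.97, 4.56 and 4.52 RPKM against 3.74, 4.78 and 5.99 RPKM in WT (0.05, SE 0.24). At P3 DESeq2 called Qprt in Pkd1-RC/RC (0.39, adjusted p = 0.0137), which edgeR did not (adjusted p = 0.291). Whether the single mutant effects changed with age was tested for each gene at P12 against P0 and against P3, and 0 of 36 such tests passed, the smallest adjusted p being 0.0803 for Kmo in Pkd1-RC/RC. Of all genes 0.00554% and 0.0111% passed for Pkd1-RC/RC and 0% for Pkhd1-/- in these tests, and an unadjusted p under 0.05 was found for 6 genes (P12 against P0) and 4 genes (P12 against P3) in Pkd1-RC/RC and for 2 and 0 in Pkhd1-/-.

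From P0 to P12 the same 6 genes rose in WT, Pkd1-RC/RC and Pkhd1-/- kidneys: Kmo, Kynu, Afmid, Aadat, Nadsyn1 and Bst1. Maturation moved much of the table, and 26.2%, 20.9% and 23.8% of all genes were called higher in these 3 genotypes, 49.8%, 41.5% and 46.9% in either direction. The median over the 9 genes was 1.64, 0.88 and 1.02 on the log2 scale against 0.02 over all genes in each genotype. Haao, Acmsd and Qprt were not called in any of the 3.

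Kmo rose most, from a mean of 0.0515 to 7.64 RPKM in WT, a log2 fold change of 7.21 (SE 0.54, adjusted p = 3.11e-11). The rise was 5.22 (SE 0.47) in Pkhd1-/- and 3.94 (SE 0.44) in Pkd1-RC/RC, where the mean at P0 was 0.481 RPKM. Aadat rose by 2.36 in WT (SE 0.21), 2.20 in Pkhd1-/- (SE 0.21) and 1.55 in Pkd1-RC/RC (SE 0.20), and Afmid by 2.02 (SE 0.22), 2.06 (SE 0.22) and 1.33 (SE 0.21). In WT Aadat was not called between P0 and P3 (-0.11, SE 0.20, adjusted p = 0.718) and rose by 2.48 from P3 to P12 (SE 0.21, adjusted p = 3.09e-10), whereas Afmid rose in both intervals, by 0.65 (SE 0.21, adjusted p = 0.0243) and 1.37 (SE 0.21, adjusted p = 1.06e-05). Kynu and Nadsyn1 in Pkd1-RC/RC were the weakest of the 6 rises, 0.88 (SE 0.34, adjusted p = 0.0349) and 0.66 (SE 0.20, adjusted p = 0.00845). That of Kynu was lost without P0 replicate 2 or 3 or P12 replicate 2 or 3 (adjusted p of 0.0654 to 0.159), and that of Nadsyn1 without P0 replicate 2 or P12 replicate 1 (0.0822 and 0.0582). Without the libraries with adrenal transcripts Kynu and Nadsyn1 were not called in Pkd1-RC/RC, nor Kynu in Pkhd1-/-, and lower levels at P12 were called for Acmsd (-0.97) and Qprt (-0.49) in Pkd1-RC/RC and for Haao (-0.81) in WT.

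**Figure D4:**
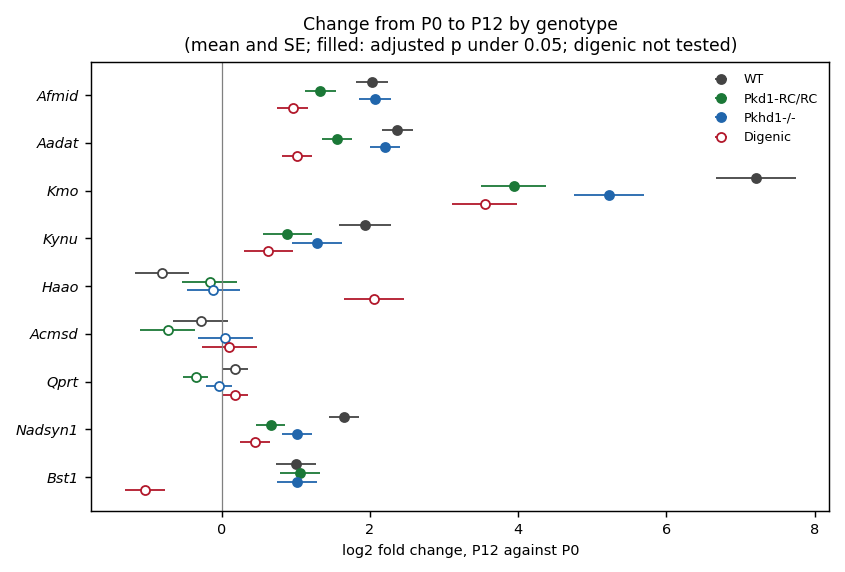
Log2 fold change from P0 to P12 (point, with bars of 1 SE) of each gene in WT, Pkd1-RC/RC, Pkhd1-/- and Digenic kidneys, 3 libraries per group and age. Filled points passed an adjusted p of 0.05; Digenic was not tested. The WT rise of Kmo is 7.21, and Digenic points lie below WT for the 6 rising genes. They lie on the other side of 0 from WT for Bst1 (-1.04), Haao (2.06) and, within 1 SE of 0, Acmsd (0.10, SE 0.37).

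Haao, Acmsd and Qprt took another course, while Nadsyn1, the last step to NAD, was among the 6 rises. From P0 to P3, where 24.7% of all genes were called in WT and 11.9% lower, Haao fell (-1.26, SE 0.36, adjusted p = 0.0127), as did Acmsd (-1.28, SE 0.38, adjusted p = 0.0146), and Acmsd rose from P3 to P12 (0.995, SE 0.37, adjusted p = 0.0392), where 35.5% of all genes were called and 18.6% higher. Qprt stayed between 13.9 and 22.7 RPKM in every WT library of the 3 ages. The WT libraries of P0 and P3 that enter these comparisons also served in choosing the genes. In Digenic kidneys, as a description, Kmo was 3.55 higher at P12 than at P0 (SE 0.43), Aadat 1.02 (SE 0.20), Afmid 0.96 (SE 0.21) and Haao 2.06 (SE 0.41), while Bst1 was lower (-1.04, SE 0.27). The proximal tubule sum was 3601 to 5896 CPM in WT P0, 4442 to 5641 CPM in WT P3 and 11507 to 14760 CPM in WT P12. It thus rose mainly after P3, whereas Kmo (4.13), Kynu (1.28), Nadsyn1 (0.96) and Afmid (0.65) were already called higher in WT at P3 than at P0. The part of the sum in the 6 rises was not tested.

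The balance between neighbouring enzymes was followed as a ratio of RPKM, given as a description. Haao to Acmsd, the step that makes the branch intermediate over the step that diverts it, was 0.526 ± 0.151 in WT P0, 0.389 ± 0.111 in Pkhd1-/- P0, 0.141 ± 0.0455 in Pkd1-RC/RC P0 and 0.0431 ± 0.00165 in Digenic P0 (SD, n = 3). The 3 Digenic values lay between 0.0412 and 0.0441. At P12 the ratio was 0.184 ± 0.0637 in Digenic and 0.368 ± 0.140 in WT, and the lowest WT library (0.275) exceeded the highest Digenic one (0.257). Pkd1-RC/RC P12, at 0.224 ± 0.0303, lay within the Digenic range, and Pkhd1-/- P12 was at 0.321 ± 0.0665. Acmsd to Qprt, the diverting step over the step towards NAD, was 1.27 ± 0.213 in WT P0 and 0.622 ± 0.188 in Digenic P0, then 0.574 ± 0.198 against 0.964 ± 0.176 at P3 and 0.915 ± 0.0881 against 0.546 ± 0.125 at P12. The Digenic groups lay below WT at P0 and P12 and above it at P3, without overlap at each age. Both single mutants overlapped with Digenic at P0, where Pkd1-RC/RC ran from 0.696 to 1.22, Pkhd1-/- from 0.537 to 1.38 and Digenic from 0.410 to 0.766. Their values at P3, up to 0.715 in Pkd1-RC/RC and 0.607 in Pkhd1-/-, lay below the lowest Digenic one (0.808). Pkd1-RC/RC P12, at 0.660 ± 0.163, overlapped with Digenic P12, and Pkhd1-/- P12 was at 0.942 ± 0.116. These ratios are of RNA per length, not of enzyme activity.

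Other genes of tryptophan and NAD metabolism were taken from 5 lists of 46 genes, of which 42 had a row. Tdo2, Ido1, Ido2 and Nmrk2, the first 3 of which start the pathway, were not analysed here. In Digenic kidneys of P12 against WT 12 of the 42 were called (28.6%), beside 23% of all genes, which is near that background. There 0 of 3 further kynurenine branch genes were called (Kyat1, Kyat3 and Got2, median -0.09, 0 also at an unadjusted p under 0.05). Of 10 NAD synthesis and salvage genes 1 rose and 1 fell (median 0.07): Nampt, the rate-limiting enzyme of nicotinamide salvage, at 0.68 (SE 0.19, adjusted p = 0.0234), and Nmnat3, the mitochondrial adenylyltransferase, at -0.54 (SE 0.10, adjusted p = 0.00275). Of 14 NAD-consuming and nicotinamide-clearing genes 3 fell and none rose (median -0.07), beside 11% of all genes called lower: Sirt4 at -0.56 (SE 0.17, adjusted p = 0.0337), Sirt3 at -0.43 (SE 0.09, adjusted p = 0.00441) and Sirt5 at -0.32 (SE 0.11, adjusted p = 0.0467), which is named here to complete the count.

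Among 8 transporters of tryptophan and kynurenine 3 fell and 1 rose (median -0.41). The organic anion transporter Slc22a8 fell by 1.08 (SE 0.21, adjusted p = 0.00331), the amino acid exchanger Slc7a8 by 0.88 (SE 0.12, adjusted p = 0.000306) and its heavy chain Slc3a2, again named to complete the count, by 0.63 (SE 0.09, adjusted p = 0.000565). Slc7a5, the other light chain, rose by 0.67 (SE 0.21, adjusted p = 0.0350). Of 7 aryl hydrocarbon receptor genes, a receptor that kynurenine and kynurenic acid can activate, Ahr rose by 0.39 (SE 0.09, adjusted p = 0.0104) and its target Cyp1b1 by 0.44 (SE 0.07, adjusted p = 0.000904), whereas the target Cyp1a1 fell by 1.52 (SE 0.40, adjusted p = 0.0155), with a list median of 0.02. The interaction at P12 was called for 4 of these 42 genes (9.52%), about the 8.57% of all genes: Slc7a8 (-0.78), Slc3a2 (-0.49) and Nmnat3 (-0.54) below, Cyp1b1 (0.49) above.

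In WT kidneys from P0 to P12 the same lists gave 7 of 10 NAD synthesis and salvage genes higher and 0 lower (median 0.58), 8 of 14 NAD-consuming genes higher and 1 lower (0.38), and 6 of 8 transporters higher and 2 lower (1.05). Over the 5 lists 27 of the 42 genes were called (64.3%), beside 49.8% of all genes, and 26.2% of all genes were called higher. Naprt, which starts NAD synthesis from nicotinic acid, rose by 1.46 (SE 0.16, adjusted p = 2.45e-08) and Nt5e by 1.49 (SE 0.29, adjusted p = 9.03e-05). Of the NAD-consuming list Aox1 (1.69, SE 0.57, adjusted p = 0.015) and Sirt4 (1.54, SE 0.21, adjusted p = 7.4e-07) rose. Sirt1 fell (-0.58, SE 0.14, adjusted p = 0.00117). The tryptophan transporter Slc6a19 rose by 2.47 (SE 0.38, adjusted p = 7.34e-06) and Slc22a8 by 1.87 (SE 0.26, adjusted p = 8.95e-07). Slc7a5 fell by 2.08 (SE 0.22, adjusted p = 9.62e-09), as did Slc22a6 (-1.09, SE 0.26, adjusted p = 0.00117). Of the kynurenine branch genes Kyat1 rose by 0.65 (SE 0.15, adjusted p = 0.000592), and of the receptor genes Nqo1 rose by 1.34 (SE 0.22, adjusted p = 1.05e-05) and Ahr fell by 0.62 (SE 0.13, adjusted p = 0.000293). The single mutants gave 0 called genes from all 5 lists against WT at P12, beside 0.267% of all genes in Pkd1-RC/RC and 0.0333% in Pkhd1-/-.

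Over the 36 libraries the genes fell into sets by their log2 CPM, described here without a test, since libraries of a group share age and genotype. Afmid and Aadat went together most closely (r = 0.91 over all libraries, and 0.79 for deviations from group means), followed by Kmo with Afmid (0.89 and 0.26), Kynu (0.88 and 0.64) and Nadsyn1 (0.88 and 0.34). Haao went with none of these over all libraries (-0.09 to 0.20), yet within groups it followed Afmid (0.77), Aadat (0.72) and Acmsd (0.64, and 0.43 over all libraries). Haao and Bst1 ran against each other over all libraries (-0.63) and little within groups (-0.16).

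The 3 genes outside the set with the most similar course over the 36 libraries were Slc13a1 (r = 0.957), Dab2 and Aass (both 0.951) for Kmo, Tinag (0.962), Echdc3 (0.953) and Lrpap1 (0.948) for Afmid, and Acss2 (0.964), Slc23a1 (0.961) and Lrpap1 (0.960) for Aadat. Kynu was nearest to Slc2a2 (0.942), Slc16a13 (0.911) and Hps5 (0.901), and Nadsyn1 to Kif12 (0.939), Ift122 (0.928) and Trabd2b (0.927). Haao was nearest to Mogat2 (0.845), Slc22a2 (0.824) and Lamtor5 (0.798), Acmsd to Mccc1 (0.825), its antisense partner Mccc1os (0.774) and Ggt1 (0.754), and Qprt to Lap3 (0.730), Pafah2 (0.706) and Pgm3 (0.664). Bst1 stood with Ankrd1 (0.887), Zfp185 (0.865) and Cnksr1 (0.847). Qprt thus had the least similar neighbours of the 9 genes and Aadat the most similar.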

How the data were processed

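Whole-kidney RNA from 36 mice in 12 groups was sequenced as paired ends, per the labels' protocols. The authors deposited raw read counts per gene for each library in 1 table, with gene lengths and 36 normalized columns that were not used. The submitters' processing notes name MAP-RSeq 2.1.0, TopHat2, Bowtie, featureCounts, edgeR and mm10, and no source used here says whether counting took strand into account. No listed gene had a mean count under 8.75, so genes below that are not seen. Promoter sequences of 3 of the 9 genes are not reported here.

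Counts were tested per age over 12 libraries with edgeR 4.0.16 (TMM scaling, filterByExpr, robust quasi-likelihood fit, limma 3.58.1, R 4.3.3), with Benjamini-Hochberg adjustment over all genes tested (18035 at P0, 18043 at P3 and 18002 at P12) and a threshold of 0.05. Changes with age came from 1 fit of 36 libraries and 18049 genes. Levels are RPKM, computed from the counts, the deposited length and the TMM-scaled library size. Correlations used log2 CPM with a prior count of 2. The script was tested on simulated counts. DESeq2 1.42.0, RLE scaling, no filter, 1 fit of all libraries, a replicate block and leaving out each library were tried as alternatives. Others were added after the data were seen: sex read from RNA as a term, leaving out libraries with adrenal transcripts, leaving out libraries whose headers differ from their labels, and, for the Digenic values at P3, leaving out the 1 Digenic library with adrenal transcripts. Library pairs of a group differed by far more than counting noise, so none was counted as 1 sample.

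The 9 genes, the lists of other pathway genes and the marker lists were chosen with earlier results of these data known. All 9 genes are named in each comparison. From each list of pathway genes up to 2 rises and 2 falls with the largest change among those called are named, and any further gene named only completes a count. As genes of similar course, the 3 with the highest Pearson r are named, among those whose mean log2 CPM reached 0 and that have a symbol other than a Gm number or a Rik name. Replicate numbers in the titles did not in general pair the libraries: correlations of same-numbered deviations from group means ran from -0.704 to 0.603, and all 3 pairs exceeded 0.1 in 3 of 30 comparisons.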

Additional observations from a re-analysis of the deposited data

How the results depend on the processing

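Of 398 recomputed values of called genes, 349 stayed past the threshold, 49 did not and 0 changed sign. Of 1438 values of genes not called, 34 passed and 102 changed sign. Of 204 recomputed counts of called genes, 21 moved by over 1.5 times, and for those below the cause was not tested. DESeq2 called 2 genes in Pkd1-RC/RC against WT at P0, 1 at P3, 1 at P12, and 2 in the interaction at P12. Fitting all 36 libraries together gave 3 genes for Digenic against WT at P12, 0 for Digenic against Pkd1-RC/RC at P12 and 3 for Pkd1-RC/RC against WT at P0. Without the libraries with adrenal transcripts, which leaves 1 Digenic library at P12, 2 were called against WT, 2 against Pkd1-RC/RC, 2 against Pkhd1-/- and 1 in the interaction. Without the libraries whose headers differ from their labels, 2 were called against Pkd1-RC/RC and 1 in the interaction.

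Leaving out each library in turn gave 4 to 5 called genes for Digenic against WT, 0 to 3 against Pkd1-RC/RC, 4 to 5 against Pkhd1-/- and 0 to 2 in the interaction at P12. For the interaction, leaving out Pkd1-RC/RC replicate 3 gave 2 genes and leaving out Digenic replicate 1 or 3 gave 1. From P0 to P12 the counts were 6 to 7 in WT, 5 to 6 in Pkd1-RC/RC and 6 to 6 in Pkhd1-/-. Qprt in Digenic kidneys at P12 changed sign without Digenic replicate 1 and was highest without Digenic replicate 2: it ran from -0.16 to 0.35 against WT, from -0.016 to 0.49 against Pkd1-RC/RC, from -0.19 to 0.30 against Pkhd1-/- and from -0.047 to 0.45 in the interaction. Without the libraries whose headers differ, it was -0.16, -0.023, -0.19 and -0.055. Acmsd against Pkhd1-/- was 0.14 without the libraries with adrenal transcripts.

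With the replicate block, 5 genes were called in Digenic against WT at P12, as without it (Kmo -0.90, adjusted p = 0.0276 in edgeR), and 5 against Pkhd1-/- in place of 4; no count moved by over 1.5 times. Depth limits Kmo at P0, with 12 to 20 counts in WT.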
